A study of Mus musculus with 24 samples.

Results

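Lyz1 and Itln1 encode antimicrobial proteins that the intestinal epithelium secretes, and both were higher in KO than in WT epithelium in each of the 4 sorted cell populations. They were 2 of the 82 genes that had values in the 4 deposited tables, and they were taken by their gene names. The tables held genes that had passed the authors' FDR limit of 0.1 for KO against WT in 1 cell type or more. Both genes were therefore chosen by measured values of the same contrast, and their KO minus WT differences are given below as a description. Lyz1 was listed for AE and CO, and Itln1 for TA and AE. The Lyz1 differences in ISC and TA, and the Itln1 differences in ISC and CO, were thus not among those that passed the limit. The deposited tables gave 1 value per gene and group and no value per library, so no difference could be set against the spread between replicates and no test was made.

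Lyz1 codes for the lysozyme of Paneth cells, granular secretory cells at the base of small intestinal crypts. Lysozyme cuts the peptidoglycan of bacterial cell walls. Itln1 codes for intelectin 1, a lectin that binds sugars on the surface of microbes and that is made by goblet and Paneth cells. Healthy mouse colon has no typical Paneth cells. The crypts of the small intestine also hold the Lgr5-positive stem cells and, above them, the dividing transit amplifying cells, and the villi carry the absorptive enterocytes.

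The study measured mRNA by RNA-seq in sorted epithelial cells with and without Smarcad1, an ATP-dependent chromatin remodelling factor. Its 24 libraries formed 8 groups of 3, KO and WT of colon epithelial cells (CO) and of 3 small intestinal populations, namely transit amplifying cells (TA), stem cells (ISC) and enterocytes from villi (AE). ISC were sorted as GFP-high and TA as GFP-medium cells from small intestinal crypts, and AE and CO as Epcam-high cells lacking CD31 and CD45, from villi and from colon crypts. A sort held 1000 to 80000 ISC or 1000 to 135000 TA, against 100000 AE or 75000 to 100000 CO.

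KO mice carried a conditional Smarcad1 allele, with loxP sites around internal exons, that was deleted by a cre transgene under the Villin promoter, which is active in the epithelium of the intestine. WT mice were labelled as wild type, and the labels do not say whether they carried the conditional allele or cre. All libraries had the strain label C57BL/6 Lgr5-GFP, and the reporter was a knock-in at Lgr5 that puts EGFP and an inducible cre there. The methods give males kept under specific opportunistic pathogen free conditions, and the labels give no age. The conditional allele came from 1 mouse line, itself from 1 ES cell clone. Nothing in the labels says which libraries came from separate animals. The paper describes ISC and TA as sorted at the same time from a crypt cell suspension, so these populations may share animals.

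Lyz1 (ENSMUSG00000069515) lies on the minus strand of chromosome 10, from 117287797 to 117292868 in GRCm38, and its transcript has 4 exons. Itln1 (ENSMUSG00000038209) lies on the minus strand of chromosome 1, from 171518122 to 171535294, and its longer transcript has 8. No other annotated gene overlapped either of them. The nearest gene with values lay 10245293 bp from Lyz1, whereas Cd244 lay only 23899 bp from Itln1.

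The bases just before the 2 transcription starts are shown because both genes were higher in KO and because Lyz1 has a close relative next to it. They are taken from RefSeq (GRCm38.p6) and read 5′ to 3′ on the minus strand. For Lyz1 they are the 250 bases up to the start, chr10:117292869-117293118. For Itln1 they are 219 bases, chr1:171535326-171535544, and end 31 bases before the start because a further transcript model begins there. Capitals mark every match, on either strand, to the E-box CANNTG, to the C/EBP motif TTGCNNAA or to the ETS core GGAAGT.
Lyz1: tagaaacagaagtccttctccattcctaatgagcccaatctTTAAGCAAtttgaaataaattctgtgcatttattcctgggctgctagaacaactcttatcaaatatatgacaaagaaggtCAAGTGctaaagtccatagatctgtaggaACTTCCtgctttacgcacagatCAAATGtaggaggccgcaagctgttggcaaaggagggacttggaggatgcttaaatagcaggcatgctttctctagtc
Itln1: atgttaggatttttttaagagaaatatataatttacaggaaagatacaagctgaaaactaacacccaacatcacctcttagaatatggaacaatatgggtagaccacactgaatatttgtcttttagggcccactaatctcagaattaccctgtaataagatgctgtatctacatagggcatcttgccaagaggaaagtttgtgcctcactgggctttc

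In the Lyz1 sequence the C/EBP match comes first, followed by an E-box, the ETS match and a second E-box. Over the 250 bases, Itln1 held 1 E-box, which lies in the stretch not printed, and none of the other motifs. E-boxes were found in 66.2% of all 32851 promoter windows of this length, C/EBP motifs in 9.56% and ETS cores in 19.7%. The other motifs searched were the TATA box TATAAA (12.4% of windows), the TCF/LEF core CTTTGA (13.8%), the STAT motif TTCNNNGAA (7.02%) and the GATA motif AGATAA (9.99%), and neither gene had a match to any of these 4. E-boxes did not overlap the C/EBP or ETS matches shown. Between the 2 members, 75 of 221 bases were identical (33.9%) at the best of the short shifts tried, without gaps. Longer shifts were not tried, and the share expected for unrelated sequences was not computed.

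Lyz2, the gene for the lysozyme of macrophages and other myeloid cells, lies 5475 bp from Lyz1 on the same strand (chromosome 10, 117277331 to 117282321). The 250 bases before the starts of Lyz1 and Lyz2 were identical at 152 positions (60.8%), and the last 50 bases were the same in both. The ETS match and both Lyz1 E-boxes stood at the same positions in Lyz2. Lyz2 also held a further E-box and had no C/EBP match.

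The likeness of the 2 lysozyme genes goes on into the transcript, where it bears on what a 50 bp read can tell apart. Of the 1214 stretches of 50 bases in the Lyz1 transcript, 195 (16.1%) also occurred in Lyz2. The shares were 20.3% in the coding part and 12.6% after it. The longest identical run was 118 bases, all coding, and is shown because a read inside it could come from either gene. It joins 26 bases of exon 2 (chr10:117291029-117291054), the 79 bases of exon 3 (chr10:117289119-117289197) and 13 bases of exon 4 (chr10:117288637-117288649), all on the minus strand of GRCm38.
Lyz1 exons 2 to 4: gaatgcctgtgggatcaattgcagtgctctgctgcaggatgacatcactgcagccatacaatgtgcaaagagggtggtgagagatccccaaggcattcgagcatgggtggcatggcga

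The authors kept uniquely mapped reads, so most of Lyz1 could be counted apart from Lyz2, which had no values in the tables and was not analysed here. Itln1 shared 11 of 1092 such stretches (1.01%), with Gm9765.

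**Figure D1:**
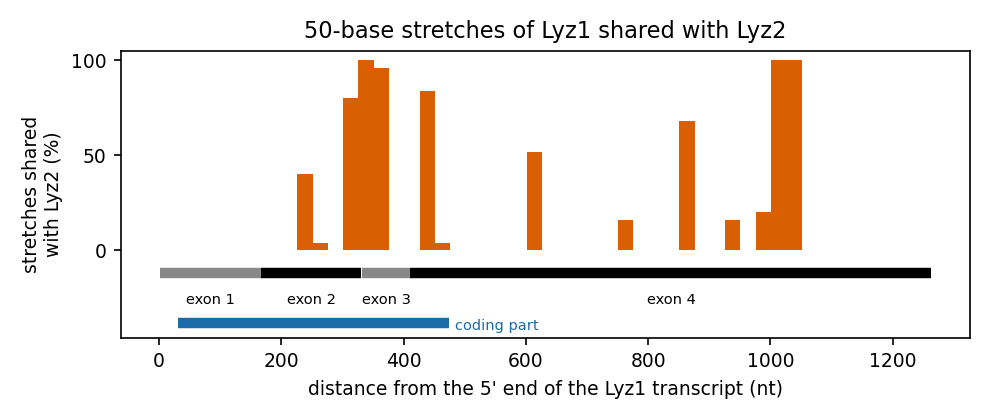
Percentage of 50-base stretches of the Lyz1 transcript that also occur in Lyz2, in bins of 25 start positions along the transcript (x axis, nt from the 5′ end), with the 4 exons and the coding part drawn to scale under the bars. The shared stretches form separate blocks in exons 2 to 4, and the longest run begins at position 306.

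As a check of the deletion, Smarcad1 itself was at 58.8% of WT in KO ISC and 54.4% in TA, then 66.0% in AE and 54.8% in CO, counted over all its exons, including those that the deletion leaves in place. The identity of the sorts could be checked on few markers. Ascl2, a transcription factor of intestinal stem cells, was the only one of 6 stem cell markers with values, at log2 6.05 in WT ISC and 4.24 in TA, then -0.18 in AE and 3.84 in CO. None of 11 enterocyte, 5 colonocyte, 3 cycling or 9 myeloid markers had values, and of 9 lymphocyte markers only Cd244 did. Values are log2 of reads normalised to the total reads, taken here as log2 RPM (reads scaled to a common library total), and they are the authors' mean of 3 libraries. The depth of the libraries is unknown.

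Lyz1 was abundant in the small intestinal crypt populations and scarce in the colon. In WT its log2 level was 9.69 in ISC and 9.12 in TA, then 6.11 in AE and -0.09 in CO, or 829, 557, 68.9 and 0.939 RPM. In KO the same populations had 10.89, 10.77, 8.21 and 3.11, or 1902, 1740, 297 and 8.61 RPM. ISC and TA were thus close to each other in both genotypes, AE stood well below them and CO far below AE.

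The steps between populations give the same order in numbers. From ISC to TA, Lyz1 differed by -0.57 in WT and by -0.13 in KO, the smallest gaps in the order. From TA to AE the difference was -3.01 in WT and -2.55 in KO, and from AE to CO it was -6.20 and -5.11. On the linear scale the Lyz1 level of ISC was 12.0 times that of AE in WT and 6.41 times that in KO. Each step was smaller in KO than in WT, so the range of Lyz1 across populations was narrower in KO, by how much beyond replicate error is not known.

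Itln1 had the same order. Its log2 level in WT was 8.97 in ISC and 8.75 in TA, then 5.96 in AE and 0.14 in CO, or 499.8, 429.8, 62.1 and 1.10 RPM. In KO it was 10.69, 10.13, 7.72 and 0.78, or 1648, 1121, 211 and 1.71 RPM. The 2 crypt populations were again highest, and the colon groups lowest.

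From ISC to TA, Itln1 differed by -0.22 in WT and -0.56 in KO, and from TA to AE by -2.79 and -2.41. From AE to CO the difference was -5.82 in WT and -6.94 in KO. The ISC level was 8.05 times the AE level in WT and 7.82 times in KO, nearly the same ratio. The step from AE to CO was larger in KO than in WT for Itln1 and smaller in KO for Lyz1. The Itln1 step from ISC to TA was also larger in KO on this scale, but with each group centred on its median it was -0.79 in WT and -0.53 in KO, so that its order turned.

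**Figure D2:**
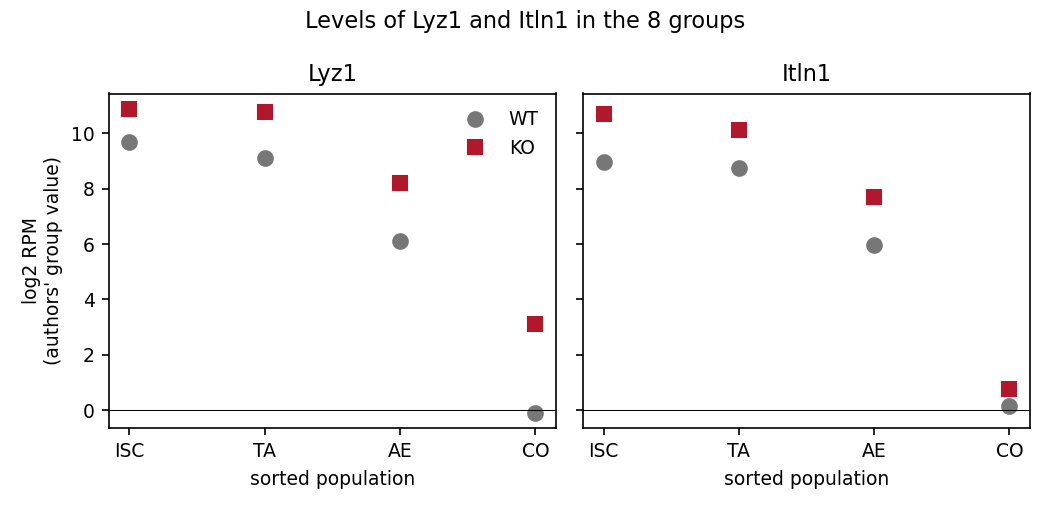
Level of Lyz1 (left) and Itln1 (right) on the y axis, in log2 RPM, in the 4 sorted populations on the x axis, with WT as grey circles and KO as red squares. Each point is the authors' mean of 3 libraries and has no error bar because the tables hold no value per library. KO lies above WT in all 8 pairs, and the Itln1 pair in CO is the closest, at 0.14 and 0.78.

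Even the lowest levels of the 2 genes lay above the lowest value that any gene had in the same group. In CO the lowest value was -5.29 in WT and -5.33 in KO. Lyz1 stood 5.20 above it in WT and 8.44 above it in KO. Itln1 stood 5.43 and 6.11 above it. How many reads lie behind the WT CO values of 0.939 and 1.10 RPM is not known.

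To compare the 2 genes with each other and with the rest, levels were divided by the length of the merged exons, 1263 nt for Lyz1 and 1141 nt for Itln1. Per kilobase, Lyz1 ranked 1 of 82 and Itln1 2 of 82 in ISC in both genotypes. In TA, Lyz1 ranked 2 in WT and 1 in KO, and Itln1 ranked 3 in both. In AE the ranks were 18 in WT and 7 in KO for Lyz1 and 19 and 9 for Itln1, and in CO they were 74 and 39 for Lyz1 and 73 and 63 for Itln1. The other genes entered the tables through the same comparisons, so these ranks describe the tables and not the transcriptome.

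Per kilobase the 2 genes were close to each other in all groups but one. The log2 level of Lyz1 minus that of Itln1 was 0.58 in WT ISC and 0.23 in WT TA, 0.00 in WT AE and -0.38 in WT CO. In KO it was 0.06 in ISC, 0.49 in TA and 0.35 in AE, but 2.18 in CO. Lyz1 was thus 4.54 times as abundant as Itln1 per kilobase in KO colon, against 0.771 times in WT colon.

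**Figure D3:**
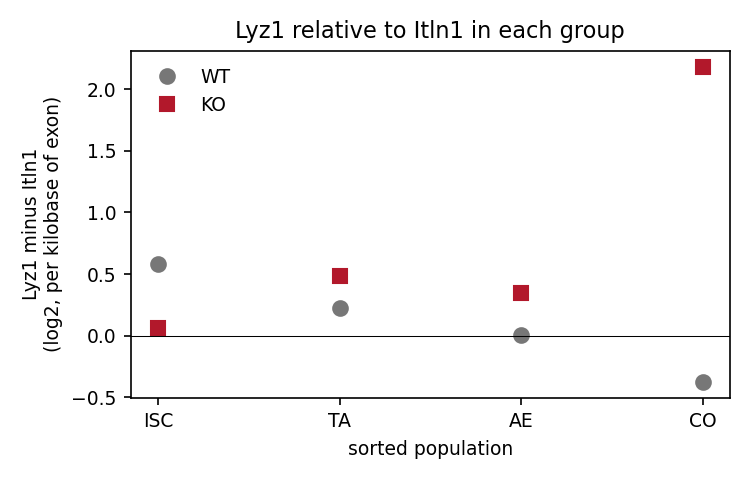
Lyz1 minus Itln1 (y axis, log2 of RPM per kilobase of merged exon) in the 4 populations (x axis), WT as grey circles and KO as red squares, each from the authors' means of 3 libraries. In 7 groups the points lie between -0.38 and 0.58, and KO CO stands apart at 2.18.

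The comparison of KO with WT asked which genes depend on Smarcad1 in each population. Lyz1 was higher in KO by 1.20 in ISC and 1.64 in TA, then 2.11 in AE and 3.20 in CO on the log2 scale, that is 2.29-, 3.12-, 4.30- and 9.17-fold. With a pseudocount of 1 the CO difference was 2.31 in place of 3.20. The mean of Lyz1 over the 4 populations was 2.04 ± 0.86 (SD between populations, n = 4). The log2 difference was larger the lower the WT level was. In RPM the order was nearly the opposite, with 1073 more in ISC and 1183 in TA, then 228 in AE and 7.67 in CO.

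Itln1 was higher in KO by 1.72 in ISC and 1.38 in TA, then 1.76 in AE and 0.64 in CO, or 3.30-, 2.61-, 3.39- and 1.56-fold. Its mean was 1.38 ± 0.52 (SD between populations, n = 4). In RPM the excess was 1149 in ISC and 691 in TA, then 149 in AE and 0.612 in CO. On the log2 scale the 3 small intestinal populations were close to each other and CO was the lowest, whereas in RPM the excess in AE was far below that in ISC. With a pseudocount of 1 the CO difference of Itln1 was 0.37 in place of 0.64, and relative to the median of all 82 genes it was 1.45, above the 1.21 of TA and the 1.31 of ISC.

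The 2 genes therefore kept within 0.52 of each other in the small intestine and parted in the colon. Lyz1 minus Itln1, as a difference of their KO minus WT values, was -0.52 in ISC and 0.26 in TA, then 0.34 in AE and 2.56 in CO. In ISC, where neither gene was listed, Itln1 had the larger difference, and in the other 3 populations Lyz1 did. Since these are sorted but pooled cells, fewer or more cells of a secretory type and less or more RNA per cell cannot be told apart.

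Against the rest of the tables, a difference of at least 1 in favour of KO was common. It was found in 26.8% of the 82 genes in ISC and 17.1% in TA, then 15.9% in AE and 15.9% in CO. Lyz1 passed that size in 4 of 4 populations and Itln1 in 3 of 4, the exception being CO. The share of the 82 genes that were listed for a population and higher in KO was 6.10% for ISC and 12.2% for TA, then 20.7% for AE and 14.6% for CO. Nothing is read from these shares, since both genes came into the tables through these contrasts.

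From the largest KO minus WT difference down, Lyz1 ranked 19 of 82 in ISC and 8 in TA, then 5 in AE and 4 in CO. Itln1 ranked 12, 11, 7 and 19. In AE the 4 genes above Lyz1 were Bglap3, an osteocalcin gene, at 5.19, Tlr4, the receptor for bacterial lipopolysaccharide, at 3.31, Mt1, a metallothionein, at 3.23, and AC151971.2 at 2.64. In CO the 3 above it were Khdc1a at 5.79, AC151971.2 at 3.91 and Bglap3 at 3.24, the last hardly above Lyz1. Some of these genes had low WT levels. Tlr4 was at -4.25 in WT AE, where Lyz1 was at 6.11. In WT CO, Khdc1a was at -3.51 and AC151971.2 at -0.97, with Lyz1 itself at -0.09. The order of these genes with a pseudocount is not given here.

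The median KO minus WT difference of the 82 genes was 0.41 in ISC and 0.18 in TA, then -0.11 in AE and -0.81 in CO, and Lyz1 and Itln1 lay above it in each. Relative to it, the ISC difference of Lyz1 was 0.79 and the CO difference of Itln1 was 1.45. Many of the genes behind the CO median were listed for being lower in KO colon. Over the 26 genes not listed for CO the median was 0.11, and relative to that the CO difference was 3.08 for Lyz1 and 0.52 for Itln1.

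**Figure D4:**
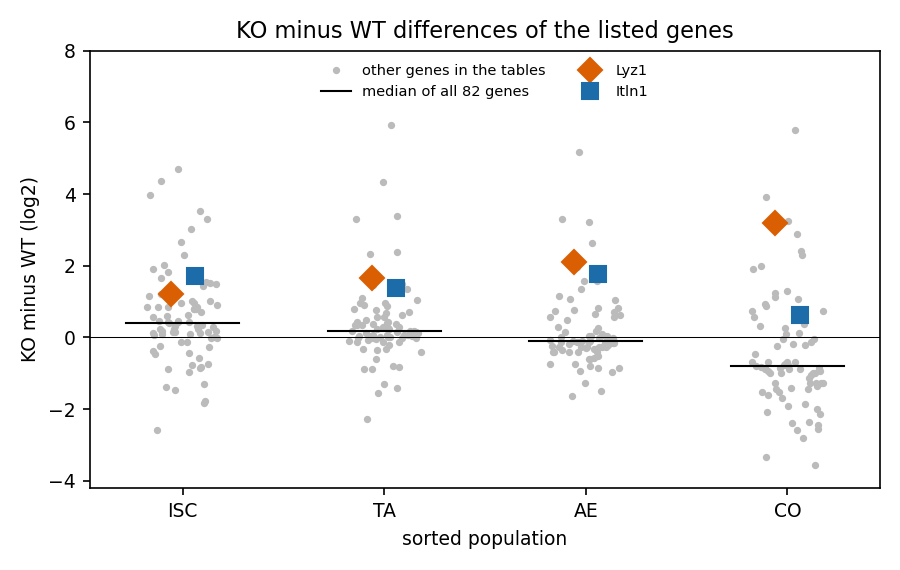
KO minus WT difference on the y axis (log2 units) in the 4 populations on the x axis, for Lyz1 (orange diamonds), Itln1 (blue squares) and the other 80 genes in the tables (grey points, spread sideways for visibility), with a black line at the median of all 82. Both genes lie above the median in each population, Lyz1 from 1.20 in ISC to 3.20 in CO and Itln1 lowest in CO at 0.64.

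Across the 8 groups, the gene whose log2 levels were most like those of Lyz1 was Itln1, with a Pearson r of 0.98, and the reverse also held. This r describes 8 group means, which share their normalisation, and carries no test. Without the 2 CO groups, which lie far from the rest, r was 0.99 over 6 groups and each was still the nearest to the other among 81 genes. The likeness was weaker in the size of the KO difference over all 4 populations. By the root mean square distance of the 4 differences, Itln1 was the 8th nearest gene to Lyz1, at 1.32, and Lyz1 the 15th nearest to Itln1. Most of this distance came from CO, where the 2 differences were 2.56 apart. In ISC, TA and AE, Lyz1 minus Itln1 was -0.52, 0.26 and 0.34, and the distance was not computed without CO.

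The next genes in the order of r for Lyz1 were Cd244, a receptor of natural killer and other lymphocytes, at 0.87, Cd74, the invariant chain of MHC class II, at 0.83, the chloride channel accessory gene Clca4b at 0.83 and AY036118 at 0.78. For Itln1 they were Cd74 at 0.91, Cd244 at 0.90, Clca4b at 0.86 and Ptpn22, a phosphatase of lymphocyte signalling, at 0.81. All of these had their lowest values in CO, and for Clca4b and Ptpn22 the sign of r depended on the CO groups. Cd244 and Ptpn22 both stood at -5.29 in WT CO and -5.33 in KO CO, the lowest values of any gene there. Without the CO groups, r with Lyz1 was 0.53 for Cd244, 0.49 for Cd74, 0.62 for AY036118, -0.61 for Clca4b and -0.59 for Ptpn22. The amino acid transporter gene Slc1a4, at 0.96, and the transcription factor gene Sox12, at 0.95, then followed Itln1 in the order for Lyz1.

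The genes with the opposite pattern had their highest values in CO. For Lyz1 these were Mal at -0.95, Gprc5a at -0.94 and the glycosyltransferase gene B3galt5 at -0.94. For Itln1 they were B3galt5 at -0.97, the protocadherin gene Pcdh17 at -0.94 and Gprc5a at -0.93. Pcdh17 stood at -5.19 in KO ISC, -5.21 in KO TA and -5.13 in KO AE, the lowest values of any gene there. For the genes of this opposite pattern, r without the CO groups is not given here. Of the 81 other genes, 24 had an r above 0 with Lyz1 and 27 with Itln1.

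**Figure D5:**
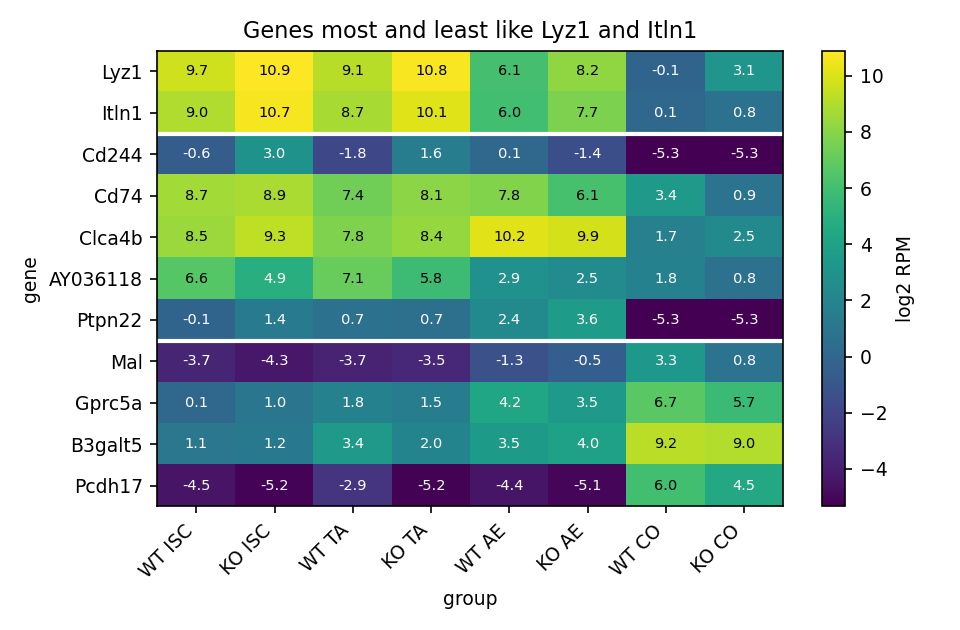
Log2 RPM (colour and printed value) in the 8 groups (columns) of Lyz1 and Itln1, of the genes with the highest r to either of them, and of those with the lowest r, from top to bottom and divided by white lines. The middle block has its lowest values in the colon columns on the right. Cd244 and Ptpn22 are at -5.3 there, the lowest value of any gene in those groups. The bottom block has its highest values in these columns, up to 9.2 for B3galt5 in WT CO. Pcdh17 has the lowest value of any gene in KO ISC, KO TA and KO AE.

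The KO minus WT differences of Lyz1 over the 4 populations were most like those of AC151971.2, with a distance of 0.70, and Mt1, with 0.85. AC151971.2 was higher in KO by 2.03 in ISC and 2.32 in TA, then 2.64 in AE and 3.91 in CO. Mt1 was higher by 1.53, 1.36, 3.23 and 2.01. Aplp1, Bambi and Sox12 followed at 1.14, 1.17 and 1.30. Like Lyz1, AC151971.2 had differences that grew from ISC to CO, at a far lower level of 0.24 in WT ISC.

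For Itln1 the nearest was Rtn4r, a receptor for neurite growth inhibitors, at a distance of 0.37. Rtn4r was higher in KO by 1.20 in ISC and 0.95 in TA, then 1.97 in AE and 0.42 in CO. The imprinted noncoding RNA gene Meg3 (0.52), the glutathione transferase gene Gsta3 (0.54), Slc1a4 (0.58) and Slfn4 (0.60) came next. Meg3 was at -5.44 in WT ISC, the lowest value of any gene there, and at -4.48 in KO ISC. Slfn4, a Schlafen family gene that was listed, like Itln1, for TA and AE, was higher by 1.34 in AE, 1.47 in TA and 1.50 in ISC, and at -0.46 in CO.

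Few other genes of the same function had values. Of 40 genes for Paneth cell and secreted antimicrobial proteins, Lyz1 and Itln1 were the 2 in the tables. The other 38, among them the defensins, Ang4 and the Reg3 genes, were not analysed here, and nothing follows about their levels. Of 29 goblet cell genes, Itln1 and Spink4 had values. Spink4, a peptidase inhibitor gene of goblet cells, was listed for AE.

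Spink4 differed from Lyz1 and Itln1 in having a high level in the colon. Its log2 level in WT was 7.40 in ISC and 9.14 in TA, then 7.44 in AE and 8.95 in CO, and in KO it was 8.31, 9.12, 8.16 and 9.21. Colon was thus among its highest groups, where both other genes were at their lowest, and its r over the 8 groups was -0.26 with Lyz1 and -0.31 with Itln1. The sign depended on the CO groups: without them r was 0.52 with Lyz1 and 0.53 with Itln1 over 6 groups. Its KO minus WT difference was 0.92 in ISC and -0.01 in TA, then 0.71 in AE and 0.26 in CO, smaller than those of both genes in each population. The part of secretory cell numbers in the Lyz1 and Itln1 differences was not tested.

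Of 25 epithelial genes that face microbes, the receptor genes Tlr2 and Tlr4 had values, and they lay on opposite sides. Tlr4, listed for ISC, was higher in KO by 3.98 in ISC and 2.38 in TA, then 3.31 in AE and 0.33 in CO. Its difference, like that of Itln1, was lowest in CO, although its WT level there, 4.41, was its highest. In the small intestine its WT level was very low, at -2.42 in ISC, -4.57 in TA and -4.25 in AE. The lowest values of any gene were -5.40 in WT TA and -5.17 in WT AE. The size of its differences there therefore rests on very low values. Tlr2, which recognises bacterial lipoproteins and was listed for TA, had differences of -1.29, -1.55, -0.60 and -0.93.

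Ascl2 gives the stem cell marker beside these values. Its KO minus WT difference was -0.45 in ISC and 0.17 in TA, then -0.05 in AE and 1.08 in CO, where it was listed. In CO, the population in which Lyz1 differed most, Ascl2 was thus also higher in KO, and its part in the result was not tested.

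Cd244, the neighbour of Itln1 on the opposite strand (chromosome 1, 171559193 to 171609746), was listed for TA. Its log2 level was -0.56 in WT and 2.97 in KO ISC, and -1.82 in WT and 1.57 in KO TA. The pattern turned in AE, with 0.06 in WT and -1.44 in KO, and both CO groups had the lowest value of any gene. Cd244 and Itln1 therefore shared the direction of the KO difference in ISC and TA, with 3.53 and 3.39 for Cd244, and not in AE, where Cd244 was at -1.50 and Itln1 at 1.76. Whether strand was used in counting is not stated, but the 2 genes do not overlap.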

How the data were processed

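mRNA libraries from sorted cells were made with a directional poly(A) kit and 15 PCR cycles and read as 50 bp single ends. The submitters' processing notes name Trim Galore 0.4.4, HISAT2 2.1.0, DESeq2 and GRCm38. The authors kept uniquely mapped reads, counted them over merged exons in SeqMonk and deposited, for each cell type, the genes past an FDR limit of 0.1. The deposited values are log2 of reads relative to total reads, 1 authors' mean over 3 libraries for each of the 8 groups. They were taken as log2 RPM, and whether the mean preceded the log is not stated. A column with the authors' FDR for KO against WT was not used.

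KO minus WT and steps between populations were subtracted on the log2 scale without pseudocount or filter, and RPM are 2 to the power of those values. Likeness was Pearson's r over 8 groups and the root mean square distance of the 4 differences. Both were tested on simulated data. Python 3.11.15, numpy 2.4.6, pandas 2.3.3 and matplotlib 3.10.9 were used. Exons, lengths and positions came from GENCODE M21 (GRCm38), where 76 of the 82 genes matched by position and 6 by symbol, and promoters from RefSeq (GRCm38.p6).

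Lyz1 and Itln1, and the gene lists, were chosen with earlier results of these data known. Genes named are the members, Smarcad1, the 5 highest and 3 lowest in r and the 5 nearest in distance for each member, those above a member where 5 or fewer, and listed genes of the marker lists. Slc1a4 and Sox12 also met this rule through distance. Gm9765 was named for shared sequence, and genes of the marker lists without values are named as such.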

Additional observations from a re-analysis of the deposited data

How the results depend on the processing

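No paired analysis was possible because the tables hold group means and no value per library, and for the same reason no replicate could be left out. No KO minus WT difference and no step of Lyz1 or Itln1 reversed in direction under the alternatives run. Without the CO groups the r with Lyz1 turned from 0.83 to -0.61 for Clca4b, from 0.76 to -0.59 for Ptpn22 and from -0.26 to 0.52 for Spink4. Centred on the genes not listed in the population, KO minus WT in ISC, TA, AE and CO was 0.86, 1.49, 2.27 and 3.08 for Lyz1 and 1.38, 1.23, 1.92 and 0.52 for Itln1, and centred on all 82 genes it was 0.79, 1.47, 2.22 and 4.01 for Lyz1 and 1.31, 1.21, 1.88 and 1.45 for Itln1. A pseudocount of 1 gave 2.31 for Lyz1 and 0.37 for Itln1 in CO and left the other 6 differences within 0.1 log2, as did raising values to at least 0.1 for all 8. With each group centred on its median, the steps from ISC to TA, TA to AE and AE to CO in WT were -1.14, -4.62 and -5.72 for Lyz1 and -0.79, -4.39 and -5.34 for Itln1. In KO they were -0.10, -3.91 and -4.08 for Lyz1 and -0.53, -3.77 and -5.91 for Itln1, so that the Itln1 step from ISC to TA, larger in KO without centring, was smaller in KO with it. With a pseudocount of 1 the step from AE to CO was -5.17 in WT and -4.95 in KO for Lyz1, and -4.91 and -6.29 for Itln1. Of the 5 genes most like each member over the 8 groups, 1 was shared with the order without the CO groups, for Lyz1 and for Itln1. For Itln1, 3 were shared under Spearman's correlation and 3 with a pseudocount, and for the Lyz1 differences 3 were shared with a pseudocount. The number of genes at least 0.5 higher in KO was 36 in ISC and 25 in TA, then 22 in AE and 20 in CO, and with a pseudocount 13 were at least 1 higher in ISC. Depth is unknown and limits what the low CO values can show, as does the lack of values per library.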
